A study of Homo sapiens with 30 samples.

Results

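The MCP-ADAR2 DD fusions carrying a nuclear localisation signal (NLS) were compared with those carrying a nuclear export signal (NES). MCP, a phage coat protein, holds on to MS2 RNA hairpins. ADAR2 DD is the deaminase domain of ADAR2, which converts adenosine in RNA to inosine, seen as G after sequencing. All 8 libraries of this kind among the 30 samples of the series were taken, 4 with the NLS and 4 with the NES, and they were paired by variant and guide. In order, the pairs were MCP-ADAR2 DD-NLS and MCP-ADAR2 DD-NES without the MS2 adRNA (a guide RNA with MS2 hairpins), the same fusions with it, MCP-ADAR2 DD (E488Q)-NLS and -NES without it, and the E488Q fusions with it. E488Q is a substitution known to make the deaminase more active. All libraries came from poly(A) RNA of HEK 293T cells, an established line of human embryonic kidney origin, harvested 60 h after transient transfection. The control was the mean of 3 sequencing runs of 1 untransfected library.

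Each condition had 1 library, so no single share has a replicate error, and every SD below is over the 4 pairs or over the 4 libraries of a localisation, which differ in variant and guide. The p-values describe these constructs only. A two-sided sign-flip test, made exact by trying all signs, cannot reach 0.05 with 4 pairs. In bulk libraries a lower share in every cell and fewer edited cells cannot be told apart. The authors' deposited values are the share of reads with G at 382978 listed sites, all of which were used. Read counts behind the shares are unknown, and so are the amounts of the fusion proteins, so localisation and protein amount cannot be told apart.

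Messenger RNA is made, spliced and polyadenylated in the nucleus and translated in the cytoplasm, where most of its life is usually spent. Some RNAs, such as MALAT1, stay in the nucleus. Natural ADAR2 is mainly nuclear and edits double-stranded stretches of nascent transcripts, often with intron sequence in one strand. A deaminase domain without the natural double-stranded RNA binding domains can still deaminate adenosines in transcripts that its anchor does not bind, which are called off-targets. ADAR2 prefers U or A before the edited adenosine and G after it.

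The sites described in most detail are shown first, because the position and neighbours of the edited adenosine differ between them. Each line gives 27 bases of the spliced transcript from GENCODE release 29, 5′ to 3′, with the edited adenosine in capitals. The first set had a higher share with the NLS in all 4 pairs.
CLCN7 Y746C: aacccctccccctAcacggtgccccag
DNAJB12 S269G: gctcatggtctccAgtccaccctacag
C11orf68 P44P: ggaggatggaaccAggtgaggagctgg
TRO S1286G: tggactggtcactAgtgatggctttgg
The second set had a lower share with the NLS in all 4 pairs.
KAT6B Q1511R: cccccaggagaacAggcacagaagcag
ZC3HAV1 3′ UTR: tcggacaagctgtAggtcctacctaaa
MDK stop codon: aagggaaaggactAgacgccaagcctg
P4HA2 R312G: gaggcttttctgtAggtaccaccatgg
The last one is the RAB7A site that was called with the guide and not without it.
RAB7A 3′ UTR: gggaaatccagctAgcggcagtattct

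Fewer sites were called as edited with the NLS than with the NES in every pair. Sites counted as called had an adjusted p below 0.01 in the authors' deposited table and a share exceeding that of untransfected cells. By this rule wild type without guide had 3759 called sites with the NLS (0.982% of all sites) and 9483 with the NES (2.48%). Wild type with guide had 4739 (1.24%) with the NLS and 20241 (5.29%) with the NES. E488Q without guide had 28023 (7.32%) with the NLS and 35283 (9.21%) with the NES, and E488Q with guide had 38080 (9.94%) with the NLS and 42713 (11.2%) with the NES. The NLS count was thus 2.52-fold, 4.27-fold, 1.26-fold and 1.12-fold lower than the NES count in these 4 pairs, in the same order.

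As a log2 ratio of NLS to NES this averaged -0.98 ± 0.90 (SD over the 4 pairs). All 4 pairs were lower, which gives the lowest p the exact sign-flip test allows (adjusted p = 0.146, Benjamini-Hochberg over 7 tests). Without the pair of wild type with guide the mean was -0.61. The mean share over all listed sites was 0.991%, 0.938%, 2.56% and 3.10% with the NLS, against 1.24%, 1.98%, 2.92% and 3.29% with the NES, in the order of the pairs. The untransfected mean was 0.153%. The difference was -0.461 ± 0.396 percentage points (4 of 4 lower, exact adjusted p = 0.146), and -0.266 without the pair of wild type with guide.

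**Figure D1:**
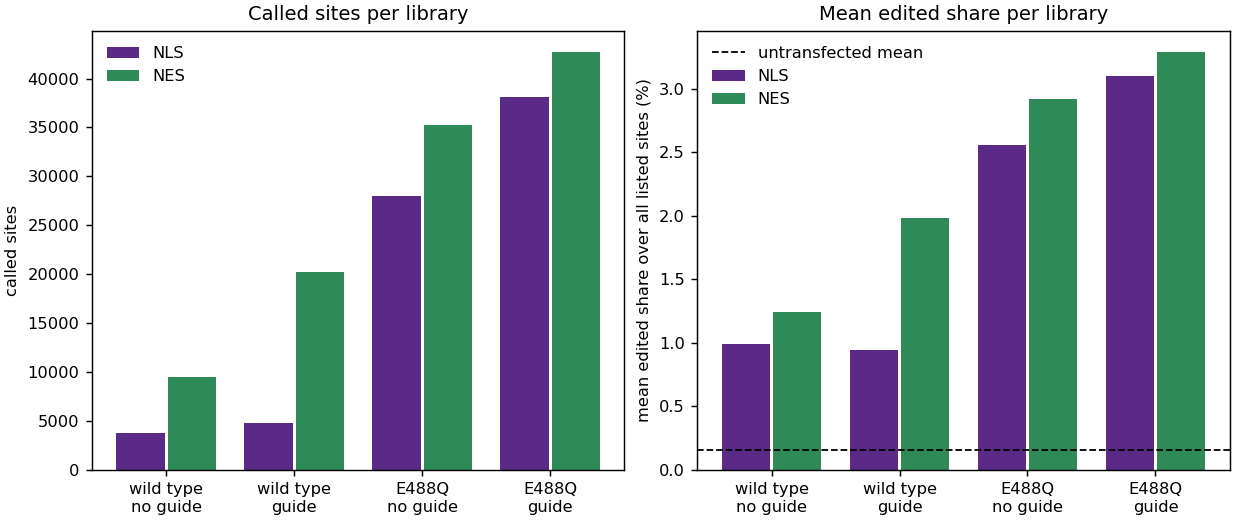
Called sites from the authors' deposited table (left) and mean edited share over all listed sites in percent (right), with bars for the NLS and NES library of each of the 4 pairs and a dashed line for the untransfected mean. The NLS bar is lower in every pair, with the widest gap in wild type with guide (4739 against 20241 called sites).

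Most of the sites called with the NLS were also called with the NES. Of the NLS list of each pair, 77.8%, 97.2%, 81.1% and 78.0% were also in the NES list, and of the NES list 30.8%, 22.7%, 64.4% and 69.5% were in the NLS list, in the order of the pairs given above. Among sites called in both libraries of a pair, the share was lower with the NLS at 83.6%, 95.3%, 64.9% and 57.04% of them. Over the 8 libraries together 59813 sites were called at least once, of which 7399 were called with the NLS and never with the NES, and 17314 with the NES and never with the NLS. Only 5 sites were called in all 4 NLS libraries and in no NES library, and 175 in all 4 NES libraries and in no NLS library. All 8 libraries called 2372 sites.

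The library of wild type NLS without guide stood apart in one respect. Its called sites in the authors' deposited table had a median share of 5.62%, against 7.66% to 10.3% in the 7 other libraries. It nevertheless had a share above 0 at 49.0% of all sites, against 46.6% in its NES partner, while the other NLS libraries had 42.8%, 62.0% and 66.5% against 54.8%, 65.5% and 67.7% in their NES partners. What part depth has in this was not tested.

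At the level of single sites no difference passed the test. Limma, fitted to arcsine-transformed shares with variant and guide as covariates, called 0 of 382978 sites at an adjusted p of 0.05. At an unadjusted p under 0.05 there were 22008 sites lower with the NLS (5.75%) and 5626 higher (1.47%). The difference was lower with the NLS in all 4 pairs at 7.37% of sites and higher in all 4 at 1.45%. In a fit of all 16 MCP libraries with localisation nested in enzyme, 11 sites passed for ADAR2, 9 lower and 2 higher. The higher ones were CLCN7 Y746C and a 5′ UTR site of SLC25A39, a mitochondrial carrier (9.15 ± 3.25 points). Among the lower ones were MDK X144W, CDR2L in its 3′ UTR (-27.6 ± 13.4 points) and SPTBN1 S2110S, in a spectrin (-15.3 ± 4.599 points).

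For a description, the 10 sites in each direction with the largest smallest pair difference were taken, 1 per gene, in exons of 1 gene and called in at least 2 libraries of the higher localisation. They were chosen after their values were seen, so no test is given for them. CLCN7, which codes for a lysosomal chloride and proton exchanger, had its Y746C site (chr 16, position 1447405, minus strand) at 31.6%, 47.4%, 35.8% and 24.6% with the NLS, against 1.10%, 0%, 1.52% and 1.32% with the NES, in the order of the pairs. All 4 NLS libraries lay above 20% and no NES library reached 2%. The difference was 33.9 ± 10.1 points (SD, 4 pairs), and the untransfected runs had 0%.

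DNAJB12 codes for a chaperone of the endoplasmic reticulum membrane. Its S269G site (chr 10, position 72338230, minus strand) stood at 17.2%, 22.7%, 36.2% and 27.3% with the NLS, against 2.74%, 1.89%, 3.03% and 1.67% with the NES. C11orf68 P44P (chr 11, position 65918206, minus strand) had 16.1%, 25.4%, 37.7% and 31.0% with the NLS, against 3.39%, 2.74%, 1.72% and 1.43% with the NES. Neither site had overlapping groups, and both were at 0% in untransfected cells. PSMC3IP E113G (chr 17, position 42573623, minus strand), in a cofactor of meiotic recombination, had 10.8%, 22.4%, 26.7% and 39.4% with the NLS, against 1.67%, 0.893%, 2.63% and 1.83% with the NES. The sites of CLCN7, DNAJB12, C11orf68 and PSMC3IP lie 14, 29, 10 and 1 bases from the nearest exon junction of the transcript used. The other chosen sites higher with the NLS lie further away. They are in TRO, RPL10A, PSMD12, PANK2, HIF1AN and INTS3, at 452, 191, 1709, 150, 241 and 130 bases.

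Other sites of this kind had mean shares of at least 7.01% with the NES, although only those of RPL10A and PANK2 were called in NES libraries. TRO S1286G (chr X, position 54930580, plus strand) averaged 23.7 ± 2.52% with the NLS and 7.01 ± 3.78% with the NES (SD, n = 4 each). A site of RPL10A, a ribosomal protein gene, in an exon of a noncoding transcript (chr 6, position 35469339, plus strand) averaged 42.3 ± 10.5% with the NLS and 23.5 ± 7.03% with the NES. The Q160R site of PANK2, a pantothenate kinase (chr 20, position 3889579, plus strand), differed by 9.92 ± 0.776 points, with 31.1 ± 6.03% with the NLS and 21.2 ± 5.63% with the NES. HIF1AN, an oxygen-sensing hydroxylase, had 22.2 ± 7.20% with the NLS and 10.5 ± 5.04% with the NES in its 3′ UTR (chr 10, position 100548333, plus strand). INTS3 K7K (chr 1, position 153728655, plus strand), in a subunit of the Integrator complex, had 25.3 ± 6.89% with the NLS and 11.9 ± 2.83% with the NES. The PSMD12 3′ UTR site (chr 17, position 67339344, minus strand) was already edited at 23.9% in untransfected cells, and averaged 47.7 ± 10.8% with the NLS and 35.7 ± 8.68% with the NES. The NLS and NES ranges overlapped at PSMD12, PANK2 and HIF1AN, although each pair was higher with the NLS.

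Of the 5 sites called in every NLS and no NES library of the authors' deposited table, CLCN7, C11orf68 and INTS3 are described above, and the others were a 5′ UTR site of GRINA (8.58 ± 2.11% with the NLS, 2.56 ± 1.12% with the NES) and V303V of RECQL4, a DNA helicase (19.2 ± 9.53% with the NLS, 7.40 ± 2.48% with the NES). At RECQL4 the ranges nearly met, with 11.1% as the lowest NLS value and 9.26% as the highest NES value.

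Sites lower with the NLS were more numerous. The chosen ones had mean differences of -37.0 to -23.3 points, against 9.92 to 33.9 points at the chosen higher ones. ZC3HAV1 codes for an antiviral zinc-finger protein of the cytoplasm. Its 3′ UTR site (chr 7, position 139044104, minus strand) stood at 9.68%, 2.70%, 8.33% and 18.4% with the NLS, against 51.2%, 51.2%, 39.4% and 45.3% with the NES. The groups were far apart, by 37.0 ± 9.85 points, lower with the NLS. KAT6B codes for a histone acetyltransferase, and its Q1511R site (chr 10, position 75029356, plus strand) had 5.26%, 15.4%, 15.4% and 9.52% with the NLS, against 33.3%, 42.3%, 58.3% and 40.9% with the NES. P4HA2 codes for a collagen prolyl hydroxylase subunit of the endoplasmic reticulum. At R312G (chr 5, position 132207854, minus strand) it had 16.7%, 11.8%, 27.8% and 25.0% with the NLS, against 50%, 57.4%, 46.2% and 45.2% with the NES.

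MDK codes for midkine, a secreted growth factor. The adenosine of its stop codon (X144W, chr 11, position 46383493, plus strand), whose editing would read as tryptophan, stood at 1.17%, 2.59%, 20.6% and 16.8% with the NLS, against 23.6%, 28.5%, 50.5% and 47.2% with the NES. The E488Q libraries were higher than the wild-type libraries within each localisation, and the difference by localisation was similar in all 4 pairs, at -27.2 ± 3.77 points. The untransfected level was 0.191%. Another stop codon lower with the NLS in all 4 pairs was that of ZNF275, with 9.67 ± 10.4% with the NLS and 25.6 ± 12.3% with the NES (chr X, position 153347974). Of all 382978 listed sites 28231 (7.37%) were lower with the NLS in all 4 pairs and 5565 (1.45%) higher. Of the 1108 stop codon sites among them, whose one outcome is tryptophan, 106 were lower and 11 higher. Their mean log2 ratio of NLS to NES shares was -0.48 ± 0.50, against -0.41 ± 0.46 at 169163 sites that change an amino acid and -0.40 ± 0.46 at 60239 synonymous sites. In the order of the pairs it was -0.33, -1.22, -0.23 and -0.14 at stop codons, against -0.26, -1.08, -0.18 and -0.08 at synonymous sites. At sites that change an amino acid it was -0.34, -1.07, -0.15 and -0.06. Stop codons were thus lower than synonymous sites in each pair. They were not lower than amino acid changes in wild type without guide. These differences were not tested.

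The remaining sites of this set were also separated by localisation. SKAP2, an adaptor protein of immune cells, had 17.9 ± 11.9% with the NLS and 42.0 ± 10.2% with the NES in its 3′ UTR (chr 7, position 26667783). NECTIN2, a cell adhesion molecule, had 34.2 ± 5.63% with the NLS and 61.8 ± 8.36% with the NES in its 3′ UTR (chr 19, position 44888999). FGD1 S213S, in an exchange factor for the GTPase CDC42 (chr X, position 54470603), had 13.0 ± 5.52% with the NLS and 37.1 ± 5.91% with the NES. TMEM9B K171R (chr 11, position 8948405) had 8.77 ± 4.81% with the NLS and 32.0 ± 5.31% with the NES. ELF4, a transcription factor, had 9.30 ± 7.15% with the NLS and 33.5 ± 7.54% with the NES in its 3′ UTR (chr X, position 130065520). OGDH K488R, in a mitochondrial matrix dehydrogenase (chr 7, position 44693952), had 4.74 ± 6.84% with the NLS and 33.4 ± 15.0% with the NES. Of these 6, only SKAP2 had overlapping ranges.

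**Figure D2:**
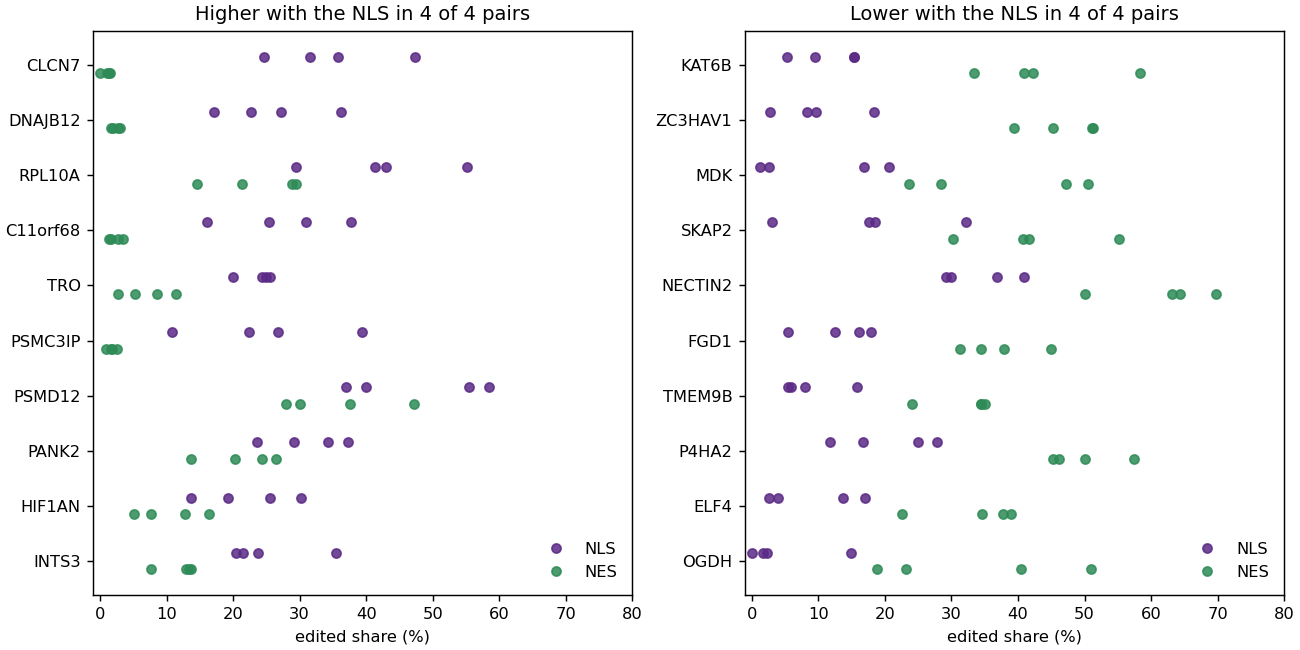
Edited share in percent at the 10 sites chosen as higher with the NLS in all 4 pairs (left) and the 10 chosen as lower (right), with 1 point for each of the 4 NLS and 4 NES libraries. CLCN7 lies at 24.6% to 47.4% with the NLS and at most 1.52% with the NES, while ZC3HAV1 lies at 2.70% to 18.4% with the NLS and 39.4% to 51.2% with the NES.

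The sites with a mean difference of at least 10 points and the same sign in all 4 pairs numbered 78 higher (0.0204% of all sites) and 1683 lower (0.439%) with the NLS. With a transcript context in 1 gene, 67 higher and 1530 lower sites remained, and what they share is given as a description. Of the higher ones 62.7% were coding, 16.4% lay in 3′ UTRs, 10.4% in 5′ UTRs and 10.4% in noncoding exons. Of the lower ones 52.8% were coding, 45.03% lay in 3′ UTRs, 1.503% in 5′ UTRs and 0.654% in noncoding exons. Among all listed sites with such a context 65.7%, 29.3%, 4.03% and 0.976% lay in these 4 regions. Of the coding sites, 28.6% in the higher set, 38.1% in the lower set and 36.6% over all lay within 30 bases of a junction. The median GC content of the bases around the site was 64.4% in the higher set, 54.5% in the lower set and 54.5% over all sites. The base before the adenosine was A at 14.9% of the higher sites, at 31.8% of the lower sites and at 35.6% of all sites. In the same order, U came before it at 43.3%, 36.3% and 22.3%, and C at 40.3%, 28.4% and 30.0%. G came after it at 64.2%, 69.9% and 58.7%.

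Both sets had been edited in other libraries as well. The libraries labelled ADAR2, with no MCP fusion, edited the higher set at 15.6% without and 20.4% with its GluR2 adRNA, and the lower set at 4.08% and 7.65%. With ADAR2 (E488Q), also without MCP, the higher set stood at 22.7% and 37.99%, and the lower set at 7.40% and 21.1%. Over all sites these 4 libraries had 1.14%, 2.10%, 2.72% and 7.94%. All 4 libraries had a higher mean share in the set that was higher with the NLS than in the set that was lower. In MCP-ADAR1 fusions, with the deaminase domain of ADAR1, the mean NLS minus NES difference was above 0 at 64.2% of the higher set. Over all sites it was above 0 at 6.995%. It was below 0 at 95.8% of the lower set, against 92.3% of all sites. Among the chosen higher sites the ADAR1 difference was 45.7 ± 11.6 points at CLCN7, 21.4 ± 16.4 at C11orf68, 3.46 ± 4.96 at DNAJB12 and -6.13 ± 7.98 at RPL10A. Among the chosen lower sites it was -31.5 ± 11.5 points at P4HA2, -19.7 ± 5.38 at ZC3HAV1 and -2.36 ± 0.782 at MDK.

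Regions of the transcript differed slightly but in the same way in each pair. The log2 ratio of NLS to NES mean shares was -0.38, -1.16, -0.28 and -0.17 over 111291 3′ UTR sites, against -0.32, -1.07, -0.16 and -0.06 over 247073 coding sites, in the order of the pairs. The ratio in 3′ UTRs minus that in coding sequence was -0.095 ± 0.026 (SD, 4 pairs; lower in 4 of 4, exact sign-flip adjusted p = 0.146). Over 16475 5′ UTR sites the ratio was -0.14, -0.77, -0.03 and 0.07.

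Within coding sequence, sites far from exon junctions had a higher ratio of NLS to NES than sites close to them. At more than 120 bases from a junction the log2 ratio was -0.13, -0.81, -0.04 and 0.06, against -0.42, -1.20, -0.19 and -0.11 at 1 to 15 bases. The difference was 0.25 ± 0.10 (higher in 4 of 4 pairs, exact adjusted p = 0.146). By GC content no steady pattern appeared, with coding sites of at least 65% minus those under 45% at -0.35, 0.26, 0.38 and 0.34 (mean 0.16 ± 0.34, exact p = 0.5).

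Transcripts annotated as retaining an intron had the highest ratios of these classes. At their 990 sites, in 142 genes, the mean share was 1.78%, 1.61%, 3.61% and 4.67% with the NLS, against 1.49%, 2.64%, 3.06% and 3.49% with the NES. It was thus higher with the NLS in every pair but that of wild type with guide. The untransfected mean was 0.629% at these sites, against 0.153% over all listed sites. Of the 990 sites 21 were lower and 18 higher with the NLS in all 4 pairs. The log2 ratio minus that of coding sites was 0.45 ± 0.09 (higher in 4 of 4, exact adjusted p = 0.146). By the authors' deposited table, calls were made at 77 of these sites (7.78%) in at least 1 NLS library and at 63 (6.36%) in at least 1 NES library, against 11.1% and 13.7% of all listed sites, again for NLS and NES libraries. DDX17 and DDX5, RNA helicases whose transcripts gave the most of the 990 sites, had low levels. DDX5 averaged over 61 sites 0.909%, 0.441%, 1.46% and 2.39% with the NLS, against 0.529%, 0.757%, 0.854% and 0.923% with the NES. DDX17 over 83 sites had 0.353%, 0.223%, 0.389% and 0.793% with the NLS, against 0.270%, 0.441%, 0.349% and 0.347% with the NES. Not all genes went this way. ATP2A2, the calcium pump of the endoplasmic reticulum, was lower with the NLS in all 4 pairs over its 36 such sites (-1.20 ± 1.02 points). GPATCH8 was also lower in all 4 pairs, over 26 such sites (-0.718 ± 0.539 points).

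**Figure D3:**
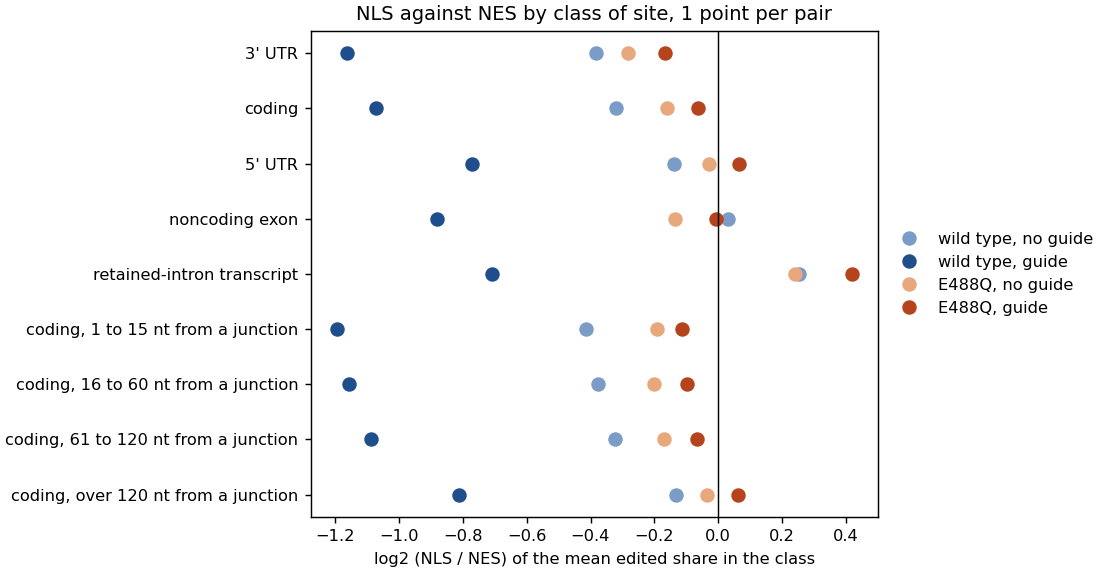
Log2 ratio of NLS to NES mean edited share by class of site, with 1 point for each of the 4 pairs and a line at 0. Retained-intron transcripts lie to the right of coding sites in every pair, 3′ UTRs to the left, and coding sites over 120 nt from a junction to the right of those within 15 nt.

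Genes were compared by the mean share over their listed sites, for 7269 genes with at least 5 sites in exons of that gene alone. Limma called 0 genes at an adjusted p of 0.05. At an unadjusted p under 0.05 it had 1426 genes lower with the NLS (19.6%) and 70 higher (0.963%). The mean difference was below 0 in 85.4% of genes, and 34.6% of genes were lower in all 4 pairs, against 1.09% higher in all 4. The median difference over genes was -0.404 points. With at least 10 sites required per gene 6 genes passed, all lower with the NLS. They were PHF20, a chromatin reader (-2.24 ± 0.940 points, limma adjusted p = 0.0385), ANAPC5, a subunit of the anaphase-promoting complex (-1.32 ± 0.354 points, adjusted p = 0.0468), TWSG1, a secreted modulator of BMP signalling (-1.61 ± 0.341 points), ANKFY1, an endosomal protein (-3.48 ± 1.51 points), ELMOD2 and C1orf123. Their adjusted p-values among all 7269 genes were 0.0931 to 0.105.

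Genes with the largest differences of 1 sign in all 4 pairs, again chosen after their values were seen, are given as values. FCGRT, the neonatal Fc receptor, had 3.51%, 3.55%, 9.61% and 12.6% with the NLS, against 6.63%, 10.5%, 20.9% and 20.8% with the NES over its 12 sites. CNN2, an actin-binding calponin, averaged 11.1% with the NLS and 17.4% with the NES over 24 sites (-6.24 ± 4.19 points), and MYH14, a nonmuscle myosin heavy chain, 9.66% with the NLS and 16.1% with the NES over 29 sites. In the other direction DLL1, a Notch ligand, had 2.11%, 4.97%, 16.2% and 10.2% with the NLS, against 1.18%, 1.12%, 10.8% and 7.34% with the NES over 13 sites. PDCD7, a protein of the minor spliceosome, averaged 4.38% with the NLS and 2.22% with the NES (2.16 ± 1.63 points), and the noncoding host gene SNHG20 3.49% with the NLS and 1.43% with the NES (2.06 ± 1.44 points).

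Gene lists were then set beside all genes. None of their genes passed the adjusted test, so each list is given by counts and medians. Nuclear-retained long RNAs had 4 of 10 named genes with enough sites, with a median difference of 0.183 points. Of these 4 genes 1 had a mean difference below 0 (25%, against 85.4% of all genes), and 0 were lower and 1 higher in all 4 pairs. MALAT1, a noncoding RNA of nuclear speckles, had the largest difference of them. Over 33 sites its mean share was 1.06%, 0.313%, 1.12% and 1.17% with the NLS, against 0%, 0.186%, 0.124% and 0.335% with the NES, and 0.0806% in untransfected cells. Every pair was higher with the NLS, by 0.753 ± 0.428 points (limma unadjusted p = 0.00914, adjusted p = 0.164), while the levels were low and 1 of its sites was called in any NLS library of the authors' deposited table and 0 in the NES libraries. The same direction held in the 4 pairs of MCP-ADAR1 fusions, with 2.00%, 2.77%, 8.32% and 9.11% with the NLS, against 0.633%, 1.65%, 2.72% and 3.21% with the NES. NEAT1, the scaffold of paraspeckles, had 0.478% with the NLS and 0.462% with the NES over 78 sites (0.016 ± 0.194 points) and was lower with the NLS in 3 of 4 pairs. OIP5-AS1, also a noncoding RNA, had 4.25% with the NLS and 3.90% with the NES (0.35 ± 1.48 points), with 2 pairs in each direction, and its mean turned to -0.351 points without the E488Q pair with guide. TUG1, another noncoding RNA, had 0.556% with the NLS and 0.744% with the NES over 59 sites (-0.188 ± 0.385 points).

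**Figure D4:**
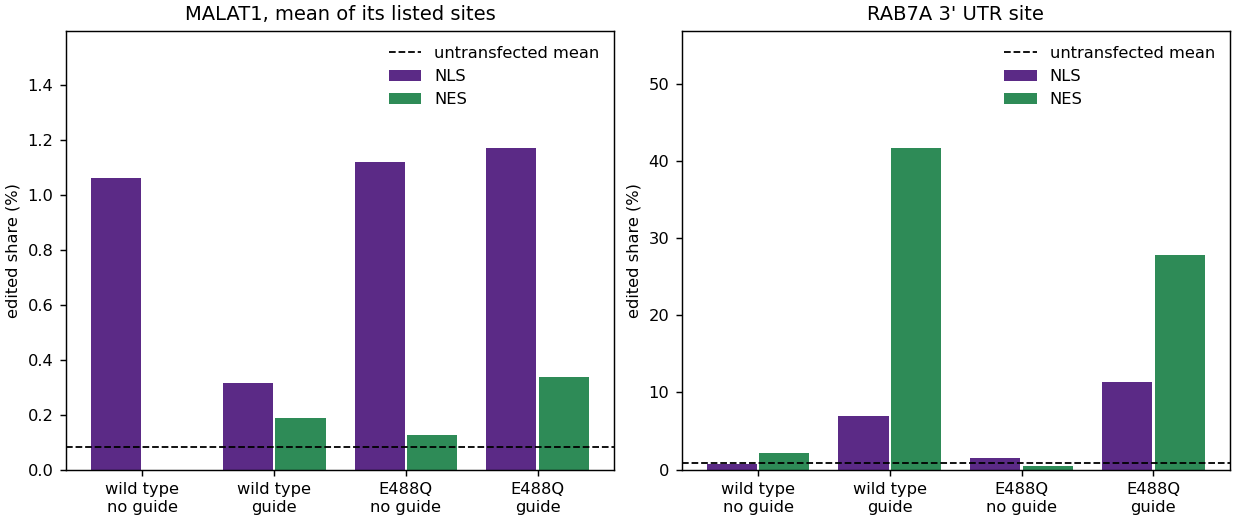
Edited share in percent of MALAT1, as the mean of its 33 listed sites (left), and of the RAB7A 3′ UTR site (right), with bars for the NLS and NES library of each pair and a dashed line for the untransfected mean. MALAT1 is higher with the NLS in each pair, and RAB7A is lower with the NLS in both pairs with guide, at 7.00% against 41.6% and 11.3% against 27.8%.

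Short-lived messages, mostly immediate early genes, also stood near 0. Of 25 such genes 12 had a mean difference below 0 (48.0%, against 85.4% of all genes) and 3 were lower in all 4 pairs (12.0%, against 34.6%). The list's median difference was 0.027 points, against -0.404 for all genes. JUNB, a subunit of the AP-1 transcription factor, had 4.31%, 4.29%, 11.5% and 13.1% with the NLS, against 1.54%, 2.91%, 9.25% and 8.54% with the NES (2.73 ± 1.33 points; limma adjusted p = 0.18). DUSP1, a phosphatase of MAP kinases, averaged 3.48% with the NLS and 2.52% with the NES (0.957 ± 1.17 points, and 0.579 without the pair of wild type without guide).

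Messages of the nuclear splicing machinery lay between these and the rest. SR proteins and CLK kinases, which regulate splicing, had a median difference of -0.081 points. Of 16 genes 12 were below 0 (75%, against 85.4% of all genes) and 3 lower in all 4 pairs (18.75%, against 34.6%). CLK1, a kinase of SR proteins, had 6.77% with the NLS and 9.21% with the NES (-2.44 ± 1.94 points, and -1.53 without the E488Q pair without guide), and SRSF10 0.669% with the NLS and 1.09% with the NES (-0.417 ± 0.370 points). The list of nuclear speckle and spliceosome genes had a median of -0.097 points, with 19 of 25 below 0 (76%) and 2 lower in all 4 (8%). SART1, a tri-snRNP protein, had 2.06% with the NLS and 2.68% with the NES (-0.621 ± 0.992 points, and -0.179 without the pair of wild type with guide), and SF3B3, a U2 snRNP protein, 1.55% with the NLS and 1.98% with the NES (-0.421 ± 0.369 points, and -0.243 without the same pair). Nuclear pore and transport genes had a median of -0.312 points, with 49 of 53 below 0 (92.45%) and 22 lower in all 4 pairs (41.5%). NUP214, on the cytoplasmic face of the pore, had 5.43% with the NLS and 6.99% with the NES (-1.56 ± 0.698 points), and NUP210, a membrane nucleoporin, 1.66% with the NLS and 2.76% with the NES (-1.09 ± 0.384 points).

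Messages of the endoplasmic reticulum and secretory pathway had mean differences of 1 sign, although none passed the adjusted test. Of 45 such genes 11 were lower at an unadjusted limma p under 0.05, against 1426 of all 7269 genes (19.6%). All 45 genes of the endoplasmic reticulum and secretory pathway list with enough sites had a mean difference below 0 (100%, against 85.4% of all genes), 30 were lower in all 4 pairs (66.7%, against 34.6%), and the median was -0.481 points. P4HA2 had 4.84% with the NLS and 11.1% with the NES over 18 sites (-6.27 ± 2.69 points), and SEC24D, a COPII coat protein, 1.35% with the NLS and 3.45% with the NES (-2.10 ± 0.512 points). Cytosolic ribosomal protein messages had a median of -0.285 points, against -0.404 for all genes. Of them, 79 of 82 were below 0 (96.3%) and 43 lower in all 4 pairs (52.4%), against 85.4% and 34.6% of all genes. RPL39 had 1.71% with the NLS and 3.65% with the NES (-1.94 ± 0.931 points), and RPS27L 1.11% with the NLS and 2.19% with the NES (-1.08 ± 0.768 points). Nuclear-encoded respiratory chain messages had a median of -0.335 points, with 72 of 75 below 0 (96%) and 33 lower in all 4 pairs (44%). UQCR11 of complex III had 3.30% with the NLS and 4.74% with the NES (-1.44 ± 1.09 points), and NDUFB2 of complex I 3.805% with the NLS and 5.23% with the NES (-1.43 ± 1.31 points).

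Genes of mRNA decay and silencing had a median of -0.387 points, against -0.404 for all genes. Of 38 genes 35 were below 0 (92.1%, against 85.4% of all genes) and 13 lower in all 4 pairs (34.2%, against 34.6%). DCP2, the decapping enzyme, had 3.00% with the NLS and 5.21% with the NES (-2.21 ± 1.11 points), and AGO2, the slicer of RNA interference, 3.60% with the NLS and 5.61% with the NES (-2.01 ± 1.39 points). Histone genes had a median of -0.389 points, with 10 of 12 below 0 (83.3%) and 5 lower in all 4 pairs (41.7%). HIST1H4C had 2.79% with the NLS and 8.30% with the NES over 5 sites (-5.51 ± 4.95 points, and -3.52 without the E488Q pair with guide), and HIST1H2BK 4.23% with the NLS and 5.50% with the NES (-1.27 ± 0.901 points). Histone messages mostly lack a poly(A) tail, so poly(A) libraries hold a selected part of them, and histone genes are near-identical copies whose reads can be split between them.

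Of zinc finger genes named ZNF, 82 of 116 were below 0 (70.7%, against 85.4% of all genes), with a median of -0.330 points. In all 4 pairs 22 were lower (19.0%, against 34.6% of all genes). Another 4 were higher in all 4 pairs, against 79 of all 7269 genes. ZNF219 had 6.21% with the NLS and 10.1% with the NES (-3.84 ± 1.35 points), and ZNF385A 7.55% with the NLS and 11.2% with the NES (-3.63 ± 2.31 points). Known natural substrates of ADAR enzymes had the lowest median, -0.606 points. Of 17 genes 16 were below 0 (94.1%), 10 were lower in all 4 pairs (58.8%) and 1 was higher in all 4. CYFIP2, an actin regulator, had 2.87% with the NLS and 5.63% with the NES over 34 sites (-2.76 ± 1.05 points), and TMEM63B, an ion channel, 2.53% with the NLS and 4.74% with the NES (-2.21 ± 1.41 points). No site of a mitochondrially encoded RNA was listed.

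**Figure D5:**
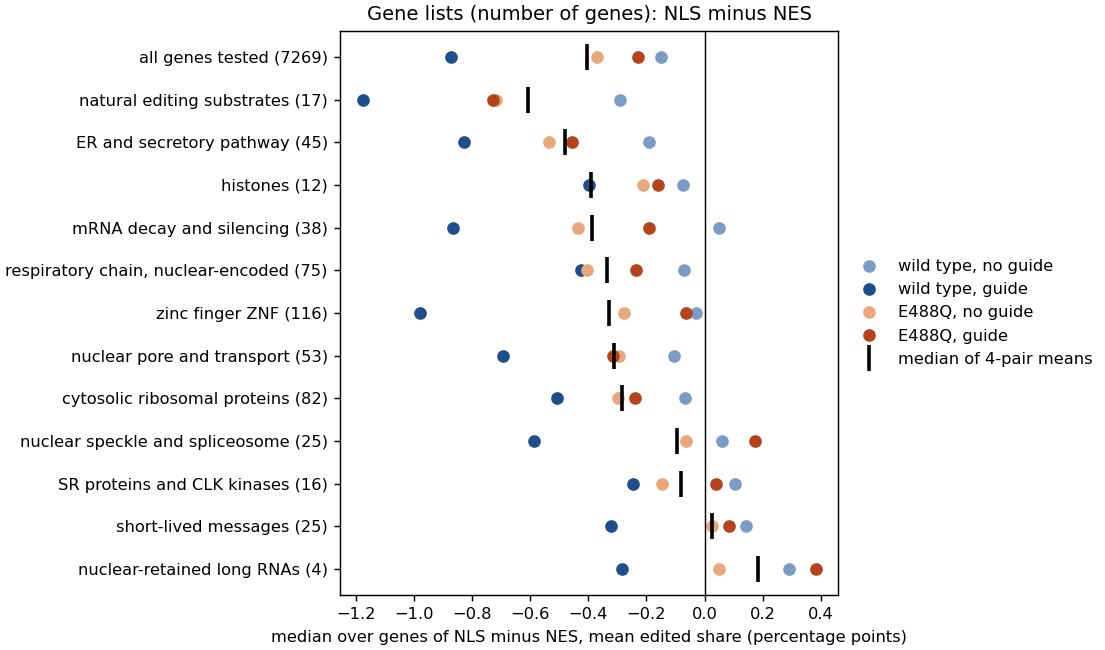
Median over the genes of each list of the NLS minus NES difference in mean edited share, in percentage points, with 1 point per pair, a bar for the median of the 4-pair means and the number of genes in parentheses. All genes have a median of -0.404 points, and the lists of nuclear-retained long RNAs and of short-lived messages lie nearest to or above 0.

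The target of the guide was measured at RAB7A, a late endosomal GTPase. That RAB7A is the target is known from the study in general and not from the labels. The site taken was the one in RAB7A whose mean share differed most between the 4 libraries with guide and the 4 without, so that difference is no finding. At its 3′ UTR site (chr 3, position 128814202, plus strand) the share with guide was 7.00% with the NLS and 41.6% with the NES in wild type, a 5.95-fold lower level with the NLS. In E488Q with guide it was 11.3% with the NLS and 27.8% with the NES, 2.46-fold lower. The mean difference over these 2 pairs was -25.6 ± 12.8 points, which is given without a test. Without guide the site stood at 0.676% with the NLS and 2.13% with the NES in wild type and at 1.48% with the NLS and 0.467% with the NES in E488Q, against 0.787% in untransfected cells. The wild-type NES library with guide had the highest target share of the 8, at 20241 called sites in the authors' deposited table, and both E488Q libraries with guide had more called sites at a lower target share. In the MCP-ADAR1 fusions with guide the site had 16.0% and 26.2% with the NLS, against 36.6% and 41.9% with the NES, for wild type and E1008Q in that order.

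By variant, limma found a localisation difference that differed between E488Q and wild type at 2764 sites, 1529 more negative in E488Q (0.399%) and 1235 more positive (0.322%). At an unadjusted p under 0.05 these shares were 2.76% and 4.47%. On untransformed and on log2 shares 0 sites passed. Over genes 0 passed, with 1.97% more negative and 3.54% more positive at an unadjusted p under 0.05.

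The localisation difference was next set against that of the MCP-ADAR1 DD fusions, which are the same design with the deaminase domain of ADAR1. The mean share over all sites differed by -0.461 ± 0.396 points in ADAR2 and by -3.90 ± 1.013 points in ADAR1 (4 pairs each). The difference between the enzymes was 3.44 points (exact two-sided permutation p = 0.0286, the smallest possible, and 0.2 after adjustment over 7 tests). On a log2 scale of the called sites of the authors' deposited table, the ratio was -0.98 ± 0.90 in ADAR2 and -1.62 ± 0.72 in ADAR1 (exact permutation p = 0.343), so the ratios of the enzymes overlapped. The ADAR1 libraries had higher mean shares in both localisations, at 2.33% to 7.09% with the NLS and 5.87% to 11.4% with the NES. The log2 contrasts by class of site had the same sign in all 4 ADAR1 pairs as in ADAR2. In ADAR1, 3′ UTR minus coding was -0.130 ± 0.038, retained introns minus coding 0.31 ± 0.08, and far from minus close to a junction 0.26 ± 0.08. Between the enzymes the exact permutation adjusted p was 0.3, 0.2 and 0.886 in this order.

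By site, limma found that the NLS minus NES difference of ADAR2 differed from that of ADAR1 at 23873 sites, with 23689 more positive in ADAR2 (6.19%) and 184 more negative (0.048%). At an unadjusted p under 0.05 these shares were 28.5% and 0.604%. With the pair as a replicate block the count was 6672, and on untransformed shares 62942. Among the sites with the largest such differences, 4 are given, all more positive in ADAR2 and mostly close to 0 in ADAR2 with the NES. They were ITPR3 L2660L, in a calcium channel (14.2 ± 8.71 points in ADAR2, -16.9 ± 14.5 in ADAR1; limma adjusted p = 0.0218), TMEM9B in its 3′ UTR at chr 11, position 8947545 (3.84 ± 3.46 in ADAR2, -30.4 ± 11.8 in ADAR1; adjusted p = 0.0161), LRSAM1 in its 5′ UTR (13.7 ± 12.2 in ADAR2, -18.3 ± 18.6 in ADAR1; adjusted p = 0.0271, and 0.0563 with the replicate block) and GRAMD4 K298R (3.49 ± 4.96 in ADAR2, -26.1 ± 9.94 in ADAR1; adjusted p = 0.0292). None of the 4 was called in an ADAR2 NLS library, and the ITPR3 position overlaps another gene.

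Sites picked in the ADAR1 libraries alone were then read in ADAR2. Limma on the 8 MCP-ADAR1 libraries called 92487 sites lower (24.1%) and 534 higher (0.139%) with the NLS. At an unadjusted p under 0.05 it was 46.5% and 0.373% of sites. At the 534 sites, ADAR2 had a mean share of 3.07%, 2.17%, 4.73% and 6.25% with the NLS, against 1.49%, 2.33%, 3.23% and 3.45% with the NES. Their mean difference in ADAR2 was above 0 at 68.4% of them, compared with 38.2% of all listed sites. At the 92487 sites, ADAR2 was below 0 at 59.9%, compared with 55.5% of all sites. Sites higher with the NLS in ADAR1 were thus also higher in ADAR2 in 3 of 4 pairs, the exception being wild type with guide (-0.162 points). The ADAR1 and ADAR2 libraries share no sample.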

How the data were processed

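Poly(A) RNA-seq (300 ng RNA, 100 bp paired reads) is described in the labels' protocols. Per the submitters' processing notes, the genome build was GRCh38.p12 and the tools were STAR 2.6.0c, bcl2fastq 2.18.0.12 and SAMtools. The authors deposited a table of the fraction of reads with G per site and, for the same sites, a table of adjusted p-values whose test is not given in the sources used here. Depth is unknown. In the table of fractions 1 column, an untransfected run whose place differs between header and rows, was not used.

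Calls combined the authors' deposited p-value with the untransfected mean (3 runs). Pairs were compared by exact sign-flip tests, enzymes by exact permutation of pairs, and sites and genes with limma 3.58.1 (R 4.3.3; arcsine square root, variant and guide as covariates, intensity trend, Benjamini-Hochberg), tested on simulated data. Pairs carry the same variant and guide and no replicate number. Sites were annotated with GENCODE 29 transcripts (Python 3.11.15); some sequences are not shown. The kit is not stated to keep strand, so overlapping genes are uncertain.

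The members and lists were chosen with earlier results of these data known. Sites and genes were to be named if past the adjusted threshold with 1 sign in 4 of 4 pairs. None passed, so others were named after their values were seen. Named as planned were the 2 members of each list with the largest mean difference, the RAB7A site and the 5 largest enzyme by localisation interactions. Some sites these rules name are not reported here.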

Additional observations from a re-analysis of the deposited data

Results flagged for a closer look

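Localisation differences that differed between the enzymes were found at 23873 sites, and the mean share over all sites differed between ADAR2 and ADAR1 by 3.44 points (exact permutation p = 0.0286, adjusted p = 0.2). The localisation difference differed between E488Q and wild type at 2764 sites. Of these, 10 were called in any of the 8 libraries of the authors' deposited table, and their median mean share was 0.206%, against 0.735% over all sites. On the untransformed and the log2 scale 0 sites passed. At PANK2 Q160R every ADAR2 pair was higher and every ADAR1 pair lower with the NLS (ADAR1 mean -5.88 points), a difference that limma did not call (adjusted p = 0.0813). At HIST1H2BK the E488Q pair with guide (0.072 points) stood apart from the other pairs. In the contrast of coding sites by GC content the pair of wild type without guide (-0.35) stood apart from the other 3. Both gaps passed Dixon's 95% criterion, which by construction is passed by chance in about 1 in 20 groups.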

How the results depend on the processing

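Directions of the comparisons over pairs were the same under every alternative run for them. Leaving out 1 pair in turn, the log2 ratio of called sites was -1.25 to -0.61, the mean share difference -0.551 to -0.266 points, the 3′ UTR minus coding ratio -0.106 to -0.086, the retained-intron minus coding ratio 0.41 to 0.49, the junction-distance ratio 0.21 to 0.28 and the GC ratio 0.08 to 0.32, and the RAB7A difference was -34.6 or -16.5 points. Without the untransfected runs in turn the log2 ratio stayed at -0.98. Sites by localisation numbered 0 in the main limma fit, with each library left out, on the log2 and untransformed scales and with the pair as a replicate block, but 91 without the intensity trend, 1 at a mean share of at least 1% (ILVBL, -1.25 ± 0.208 points) and 11 with all 16 libraries. Genes numbered 0, 0 to 2 with a library left out (PHF20 and TCTN1 without wild type NES without guide) and 6 at 10 or more sites; the replicate block gave 0. Localisation by variant went to 0 of 2764 on both other scales, and localisation by enzyme to 62942 untransformed and 6672 with the replicate block. The causes were not tested. Of 250 values of named sites and genes without 1 pair, 14, of 12 sites or genes, moved by over 1.5 times, of which 1 changed sign (OIP5-AS1). Alternatives for retained introns, junction distance, GC, the RAB7A and named values, the log2 interactions and background subtraction were chosen after seeing the data. The number of reads behind a share limits the low levels of MALAT1 and retained introns.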
